A study of Oryza sativa with 12 samples.

Results

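The desiccation response of rice seedlings over-expressing *OsHOX24* was read from 6 of the 12 arrays of the series. The members were chosen by label alone: 3 arrays of over-expression seedlings under drought (H49_DS) were set against 3 arrays of over-expression seedlings under control (H49_CT), and every one of the 15140 genes measured by a probe set assigned to it alone was described. The transgenic plants, line H49 in the paper, carried the open reading frame of *OsHOX24* behind a *ubiquitin* promoter (*UBQ::OsHOX24*) and stand for a single transgenic line. All seedlings, also the wild type (WT) ones of the other 6 arrays (WT_DS and WT_CT, 3 each), were of the cultivar Pusa Basmati 1 and 3 weeks old. In desiccation stress (DS) they lay between folds of tissue paper for 3 h, and control seedlings stood in water for 3 h. Each value was a log2 probe set signal after robust multi-array average (RMA) normalization, so a difference of 1 is a 2-fold change. The replicates are independent biological ones according to the methods.

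Drying of a vegetative rice plant raises abscisic acid (ABA), which binds PYL receptors, blocks clade A protein phosphatases of class 2C (PP2C) and frees SnRK2 kinases (SAPK in rice) to activate bZIP factors. These switch on genes for late embryogenesis abundant (LEA) proteins and dehydrins, hydrophilic proteins that protect cell contents during water loss. *OsHOX24* encodes a homeodomain-leucine zipper factor of subfamily I (HD-Zip I), a plant-specific family in which several members respond to water deficit.

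*OsHOX24* itself had log2 values of 10.17, 9.44 and 9.96 in H49_DS and of 4.56, 3.57 and 3.23 in H49_CT, a 67.1-fold difference with no overlap. The WT arrays gave nearly the same picture, with 9.38, 10.29 and 10.06 in WT_DS and 5.61, 4.11 and 2.83 in WT_CT. H49_CT arrays were thus not above WT_CT arrays for the over-expressed gene. The position of its probes in the transcript is not given in the sources used here. Whether they detect the RNA of the construct was not tested, and these values do not settle the label of the line. The paper reported raised *OsHOX24* expression in H49 relative to WT by real-time PCR. It also checked its selected lines by Southern blotting.

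The arrays of each H49 group resembled each other more than those of the other treatment. Across genes the correlation was 0.964 to 0.969 between H49_DS arrays and 0.964 to 0.967 between H49_CT arrays, against 0.878 to 0.902 between an H49_DS and an H49_CT array. No 2 of the 12 arrays held identical values. The labels cannot settle whether replicate 1 was exchanged between H49 and WT, a doubt that bears on every H49 value and on each comparison with WT, and counts without it are given with the main ones. Over the genes tested, array medians lay at 5.02 to 5.10 in H49_DS and at 5.24 to 5.30 in H49_CT, so these medians moved with the treatment. Over all probe sets the medians of the 12 arrays lay at 4.32 to 4.46. Whether the scale of the arrays or falls of genes lowered the H49_DS medians was not tested. Seedlings hold shoot and root together. Of 8 shoot marker genes, 0 rose and 5 fell in H49_DS, and their mean log2 value was 7.87 to 8.01 in H49_DS arrays and 8.85 to 9.39 in H49_CT arrays. For 9 root markers, of which 0 rose and 2 fell, the mean was 3.96 to 4.61 in H49_DS arrays and 4.34 to 4.62 in H49_CT arrays. In whole seedlings fewer cells of a type and less RNA per cell cannot be told apart. The 7 seed storage markers were low in both groups (array means 2.76 to 3.23 in H49_DS and 2.74 to 3.14 in H49_CT), and none of the 7 changed. Among 11 genes often used as controls, 0 rose and 4 fell (36.4%). Over all genes tested, 5.26% rose and 9.3% fell, and among genes with a recognised name 8.08% and 12.8%. With every array centred on its median, falls numbered 5 for the shoot markers, 2 for the root markers and 2 for the controls. *UBQ5*, a ubiquitin gene, had 5.43, 5.33 and 5.76 in H49_DS and 6.01, 5.67 and 6.03 in H49_CT, and did not pass the test (log2 fold change -0.39, adjusted p = 0.187 from limma). The actin gene *ACT1* stood lower in every H49_DS array (10.60, 10.72 and 10.97) than in any H49_CT array (11.99, 11.60 and 11.68). Its log2 fold change of -0.99 lay just under the 2-fold limit.

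In H49, 797 genes rose and 1408 fell after DS (limma, minimum change 2-fold, maximum adjusted p 0.05), which is 5.26% and 9.3% of all genes tested and 14.6% in either direction. The rest, 12935 genes, were not called. Falls were more frequent, but rises were larger. The median change was 2.81-fold among risen genes and 2.54-fold among fallen genes. At least 4-fold changes numbered 198 rises and 136 falls, and at least 8-fold changes 60 rises and 18 falls. At 16-fold or more there were 18 rises and 1 fall, and at 32-fold or more 8 rises and 0 falls. The gene that fell furthest, LOC4326620, ended at 3.15, 3.38 and 2.86 in H49_DS. The seed storage markers, low in both groups, had array means of 2.76 to 3.23 there. How far low values limit the size of a fall was not tested. Without a fold minimum, 1436 genes rose and 2673 fell. Without replicate 1 of both H49 groups, 726 genes rose and 1069 fell, of which 649 and 980 were among the main calls. The 3 H49_DS arrays did not overlap the 3 H49_CT arrays in 791 of the 797 risen and 1386 of the 1408 fallen genes, and over all 15140 genes the arrays stood apart in 44.8%. The direction of the balance depended on scaling. With every array centred on its median, a step that shifted the median gene by 0.22, to a log2 fold change of 0.16, 1136 genes rose and 885 fell, so that falls made up 43.8% of the calls in place of 63.9%. With quantile normalization falls made up 52.9% (928 risen, 1041 fallen). No risen gene became a fallen one under either scaling, nor the reverse.

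**Figure D1:**
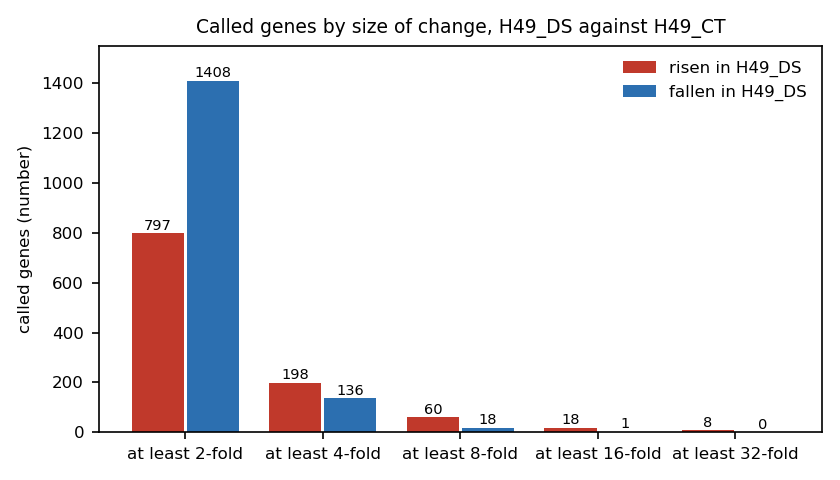
Number of called genes (vertical axis) that changed by at least 2-, 4-, 8-, 16- or 32-fold in H49_DS against H49_CT (horizontal axis), with rises in red left of falls in blue. Falls outnumber rises at 2-fold (1408 against 797), whereas rises outnumber falls from 4-fold (198 against 136) upwards.

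Most of the response lay in genes with no name beyond a LOC symbol in the tables used here, which describe no role for them. A recognised name was held by 1733 genes, of which 140 rose and 221 fell (8.08% and 12.8%). Of the other 13407 genes, 657 rose and 1187 fell (4.9% and 8.85%). Before DS the genes that fell lay higher on the arrays than those that rose, with a median H49_CT mean of 6.51 for fallen and 5.63 for risen genes, against 5.28 for all genes. After DS the order was the other way round, with a median H49_DS mean of 5.05 for fallen and 7.40 for risen genes.

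The 15 largest rises held 8 genes known by LOC symbol only. LOC9267506 rose 42.8-fold, with 8.52, 10.34 and 10.34 in H49_DS and 3.52, 4.67 and 4.74 in H49_CT (standard error 0.60, adjusted p = 3.8e-05). In WT it had 10.18, 8.81 and 8.34 in WT_DS and 5.58, 3.75 and 4.52 in WT_CT. Replicate 1 was thus the lowest of both H49 groups and the highest of both WT groups. In DS it lay nearer to the other genotype's replicates 2 and 3 than to those of its own. Not every gene showed this. In *G1L5*, replicate 1 lay with its own genotype after DS (3.9, 3.54 and 3.65 in H49_DS, 2.92, 3.15 and 3.08 in WT_DS). In LOC4339934 it did so in control (4.31, 4.67 and 4.8 in H49_CT, 3.46, 3.57 and 2.89 in WT_CT). How many genes showed either order was not tested. LOC4342424 had 8.15, 8.22 and 8.79 in H49_DS and 3.30, 2.79 and 2.83 in H49_CT. LOC4324254 had tight groups, 10.44, 10.63 and 10.53 in H49_DS and 5.26, 5.25 and 5.05 in H49_CT, a 40.7-fold rise. LOC4332481 had 8.53, 9.75 and 9.73 in H49_DS and 4.06, 4.54 and 3.81 in H49_CT. Its neighbour on the chromosome in the RefSeq gene order, LOC4332482, rose as well, by 2.15 on the log2 scale. The other LOC genes of this set were LOC4348501 (4.89), LOC4341691 (4.83), LOC4346387 (4.35) and LOC4324029 (4.35, all log2 fold changes).

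The rest of the 15 had names. *OsLEA3-1*, a LEA protein gene, had 8.15, 8.43 and 7.68 in H49_DS and 2.34, 2.73 and 2.03 in H49_CT, a 52.6-fold rise (standard error 0.29 on the log2 scale, adjusted p = 1.7e-07). *OsSWEET15*, a sugar exporter gene, had 9.22, 10.24 and 9.19 in H49_DS and 4.13, 4.5 and 3.42 in H49_CT. *OsPP2C59* had 10.38, 10.40 and 10.57 in H49_DS and 5.20, 5.09 and 4.70 in H49_CT. *ELA3*, also listed as the early nodulin-like gene *ENODL18*, had 8.77, 9.0 and 8.66 in H49_DS and 4.09, 4.11 and 3.82 in H49_CT. The dehydrin gene *RAB16C* and the PP2C gene *PP2C68* complete the set with *OsHOX24*. The largest change that was not called was that of LOC4340119, chosen after its values were seen. It had 3.45, 6.68 and 9.38 in H49_DS and 2.45, 4.32 and 4.98 in H49_CT, so its groups overlapped (log2 fold change 2.59, standard error 1.40, adjusted p = 0.195).

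Of the 15 largest falls, 13 were LOC genes. LOC4326620 fell furthest, 16.8-fold, with 3.15, 3.38 and 2.86 in H49_DS and 7.51, 6.90 and 7.18 in H49_CT (standard error 0.28, adjusted p = 1.3e-06). LOC4351321 had 4.09, 4.51 and 3.07 in H49_DS and 7.87, 8.02 and 7.67 in H49_CT. LOC9270481 had 3.10, 2.87 and 3.13 in H49_DS and 6.79, 6.99 and 6.35 in H49_CT, a 12.8-fold fall with the smallest standard error of the 15 (0.23). The arrays of LOC4342395 varied in both groups, with 8.11, 6.61 and 6.02 in H49_DS and 11.06, 11.23 and 9.26 in H49_CT. The log2 fold changes of the other LOC genes ran from -3.81 (LOC4335562) to -3.24 (LOC4346676). The named genes were *PDX12*, of vitamin B6 synthesis, with 3.15, 3.55 and 2.87 in H49_DS and 6.51, 8.13 and 5.50 in H49_CT, and *DREB1A*, an AP2/ERF factor gene known from cold response, with 4.70, 5.0 and 4.5 in H49_DS and 6.97, 8.68 and 8.85 in H49_CT. In both the spread lay in the control arrays.

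**Figure D2:**
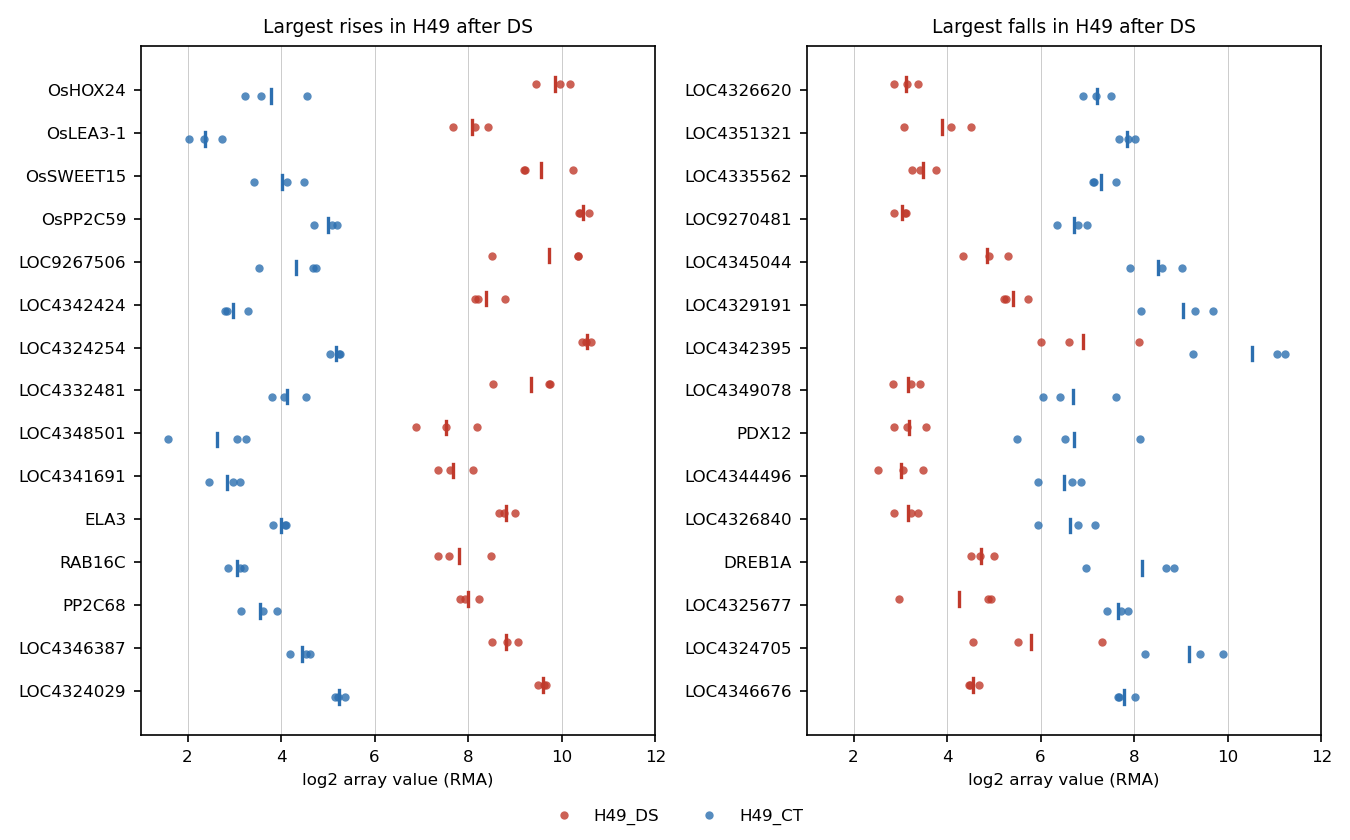
Log2 array values (horizontal axes) of the 15 genes with the largest rises (left) and the 15 with the largest falls (right) in H49 after DS. Each point is 1 array and each bar a group mean, with H49_DS in red above H49_CT in blue. The groups of OsHOX24 lie between 9.44 and 10.17 (H49_DS) and between 3.23 and 4.56 (H49_CT), and 13 of the 15 largest falls carry a LOC symbol only.

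The first group of genes in the response was that of ABA and protection. The gene lists hold only genes with a recognised name, of which 8.08% rose and 12.8% fell. Genes with a LOC symbol only could not enter them. The lists were chosen with earlier results of these data known, and how far that shaped their counts was not tested. All 7 named LEA, dehydrin and related protection genes measured rose, against 5.26% of all genes. Their median log2 fold change was 2.38, where the median of all genes was -0.06. *EM*, an early LEA gene, varied most within H49_DS (5.08, 6.75 and 7.58, against 2.83, 3.34 and 2.78 in H49_CT). *LEA1* had 5.68, 6.11 and 6.40 in H49_DS and 3.4, 4.3 and 3.36 in H49_CT. *salT*, which encodes a salt-induced lectin, rose by 1.86, and *LTI6A* and *LTI6B*, genes of small membrane proteins induced by low temperature, rose by 1.51 and 1.70.

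Along the ABA pathway itself the changes were uneven. In synthesis, *OsPSY3*, a phytoene synthase gene of the carotenoid precursors, had 7.26, 7.05 and 7.66 in H49_DS and 4.99, 4.99 and 5.25 in H49_CT. *MHZ4*, a gene for neoxanthin synthesis, had 8.28, 7.79 and 8.47 in H49_DS and 6.08, 5.81 and 5.96 in H49_CT. *OsABA8ox2*, which encodes an ABA-degrading hydroxylase, rose too, by 1.32 (adjusted p = 0.011). Those 3 of 8 genes of ABA synthesis and breakdown rose and 0 fell, whereas the other phytoene synthase genes did not pass (*OsPSY1* 0.25 and *OsPSY2* 0.35). In perception, the only receptor gene found by name, *OsPYL11*, had 6.07, 5.92 and 6.78 in H49_DS and 6.57, 6.54 and 7.09 in H49_CT. It was not called (-0.48, adjusted p = 0.195). Of the kinases, *OsSAPK1* rose and was alike in all H49_DS arrays (7.99, 7.98 and 7.97, against 5.79, 5.24 and 5.54 in H49_CT), while *OsSAPK4* passed the adjusted p at 0.90, under the 2-fold limit. Of 33 named PP2C genes 7 rose (21.2%, against 5.26% of all genes) and 2 fell (6.06%, against 9.3%). The list was not limited to clade A, the only clade known to restrain ABA signalling. The risen *OsPP2C09* had 8.68, 8.44 and 8.82 in H49_DS and 5.46, 5.95 and 5.6 in H49_CT, and *ABIL1* (*OsPP2C06*) rose by 2.84. In contrast, *OsPP2C05* fell by 1.77 and *OsPP2C12* by 1.12. *OsbZIP23*, a bZIP activator of ABA-regulated genes, had 8.90, 8.74 and 9.08 in H49_DS and 6.05, 5.80 and 6.21 in H49_CT, a 7.39-fold rise. Among 15 bZIP genes 2 rose and 1 fell, namely *OsbZIP08*, which fell by 1.44.

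Of 36 measured homeobox genes, 4 rose and 4 fell (11.1% each), against 5.26% risen and 9.3% fallen among all genes, so the share of falls was near that background. Besides *OsHOX24*, the HD-Zip genes *HOX12* (6.35, 7.19 and 6.27 in H49_DS, 4.63, 4.55 and 4.44 in H49_CT) and *HOX7* (6.75, 6.92 and 6.62 in H49_DS, 4.60, 4.47 and 5.16 in H49_CT) rose by 2.06 and 2.02. The HD-Zip IV genes, whose relatives act in the epidermis, split: *Roc4* rose by 1.21, and *Roc7* fell by 1.63 and *Roc5* by 1.38. *HOS59* of the KNOX class fell by 1.76 and the HD-Zip III gene *HOX33* by 1.27. In other factor families, 3 of 7 NAC, 2 of 8 MYB and 3 of 14 heat stress factor genes rose, and 1 heat stress factor gene fell. *NAC048* had 10.59, 10.40 and 10.52 in H49_DS and 8.78, 9.59 and 9.45 in H49_CT. Its call is lost without H49_CT replicate 1 (0.98). *NAC077*, which the study followed by real-time PCR, had 4.76, 4.44 and 5.06 in H49_DS and 4.26, 3.26 and 3.02 in H49_CT. It passed at an adjusted p of 0.038, and leaving out H49_CT replicate 2 or 3, or any 1 of the H49_DS arrays, took the adjusted p to between 0.051 and 0.137. None of 5 WRKY genes was called. Of 21 small heat shock protein and chaperone genes 1 rose, namely *HSP81-1* of the HSP90 family (1.29, adjusted p = 0.068 from limma without replicate 1 of both H49 groups), and 0 fell.

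Chlorophyll genes were divided by function. Synthesis genes fell and breakdown genes rose. Of 13 synthesis genes 10 fell and 0 rose, with a median log2 fold change of -1.11, against 9.3% of all genes fallen. The 3 that were not called were *HEMB* (0.33), *CAO* (-0.58) and *DVR* (-0.79). *CHLD* and *CHLI*, which encode subunits of magnesium chelatase, had 5.87, 6.30 and 5.88 (*CHLD*) and 6.06, 6.46 and 5.97 (*CHLI*) in H49_DS, and 7.48, 7.33 and 7.60 (*CHLD*) and 7.69, 7.55 and 7.36 (*CHLI*) in H49_CT. *PORB*, a protochlorophyllide oxidoreductase gene, fell 3.19-fold (6.17, 6.38 and 6.0 in H49_DS, 8.31, 8.19 and 7.07 in H49_CT). *UPD2*, a uroporphyrinogen decarboxylase gene, fell by 1.57. With arrays centred on their medians 6 of the 13 fell and 0 rose.

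All 4 named chlorophyll breakdown genes measured rose, against 5.26% of all genes and 8.08% of those with a recognised name. This list too was chosen with earlier results of these data known. *SGR* (*stay-green*), which acts when magnesium is taken from chlorophyll, rose 7.48-fold, with 9.36, 8.76 and 9.17 in H49_DS and 6.04, 6.38 and 6.17 in H49_CT (standard error 0.26, adjusted p = 8.4e-06). *NYC1*, a chlorophyll *b* reductase gene, had 11.63, 11.08 and 11.34 in H49_DS and 9.06, 8.68 and 9.67 in H49_CT. *OsRCCR1*, for the red chlorophyll catabolite reductase, had 6.66, 6.75 and 6.55 in H49_DS and 4.91, 4.98 and 4.97 in H49_CT. *NOL*, a second chlorophyll *b* reductase gene, rose 2.11-fold, and without H49_CT replicate 2 its log2 fold change of 0.94 lay under the limit.

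Genes of the photosynthetic apparatus fell in part. Of 13 genes of light harvesting and the photosystems 6 fell (46.2%), 0 rose and 7 were not called. Of 6 genes of the Calvin cycle and photorespiration 4 fell (66.7%) and 0 rose. Over all genes 9.3% fell and 5.26% rose. *CAB2R*, for a chlorophyll *a*/*b* binding protein, had 7.44, 9.08 and 8.09 in H49_DS and 10.49, 10.84 and 10.12 in H49_CT, a 4.85-fold fall. *petC*, of the cytochrome *b6f* complex, had 8.17, 8.24 and 7.60 in H49_DS and 9.66, 9.53 and 9.15 in H49_CT. *LFNR1*, for leaf ferredoxin-NADP reductase, fell by 2.27 and *OEE3*, of the oxygen-evolving complex, by 1.27. The shoot markers given above include *CAB2R*, *petC*, *LFNR1* and *LIR1*, so these falls and the shoot marker values are in part the same measurement. In the photorespiratory path, the catalase gene *CAT-A* fell by 2.45 and *GLO5*, a glycolate oxidase gene, by 1.27. Of the genes that take up the ammonium set free there, *Fd-GOGAT*, for glutamate synthase, fell (9.26, 9.70 and 9.50 in H49_DS, 11.02, 11.10 and 10.96 in H49_CT). *GLN2*, the plastid glutamine synthetase gene, passed at -1.08, but its call is lost with centred arrays (-0.86, adjusted p = 0.055 from limma) and without H49_CT replicate 2, H49_DS replicate 1 or H49_DS replicate 3 (adjusted p 0.061 to 0.07).

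Sugar transporter genes were among the lists with a larger share of rises. Of 18 measured 5 rose (27.8%, against 5.26% of all genes) and 2 fell (11.1%, against 9.3%). After *OsSWEET15* came *OsSWEET16* (7.70, 6.82 and 7.85 in H49_DS, 5.08, 4.64 and 4.62 in H49_CT) and *OsSWEET13* (1.80), with the sucrose transporter genes *OsSUT2* (1.25) and *OsSUT1* (1.18). *MEX1*, for a plastid exporter of maltose, fell by 1.53. *OsPPT2*, for a plastid transporter of phosphoenolpyruvate, fell by 1.85 and was not called without replicate 1 of both H49 groups (adjusted p = 0.057 from limma). In sucrose, starch and trehalose metabolism 3 of 43 genes rose (6.98%) and 4 fell (9.3%), shares near those of all genes. There the sucrose synthase genes differed: *OsSUS1* fell by 2.20 (5.73, 5.94 and 6.05 in H49_DS, 8.13, 8.09 and 8.08 in H49_CT), and *OsSUS4* rose by 1.21. Of 8 genes of the glyoxylate cycle, gluconeogenesis and fermentation 2 rose and 3 fell. *ICL*, for isocitrate lyase of the glyoxylate cycle, rose 8.49-fold (8.39, 8.18 and 7.79 in H49_DS, 5.51, 4.89 and 4.70 in H49_CT). *PDC2*, a pyruvate decarboxylase gene of fermentation, fell by 2.18 and *FBPase*, for fructose bisphosphatase, by 2.04. *FBPase* is also among the shoot markers given above, so its fall and the shoot marker values are in part the same measurement. Among 29 genes of amino acid and polyamine metabolism 4 rose (13.8%) and 6 fell (20.7%). The risen ones included *IVD*, for isovaleryl-CoA dehydrogenase of leucine breakdown (11.13, 11.19 and 10.79 in H49_DS, 9.09, 9.20 and 9.16 in H49_CT), and *OAT*, for ornithine aminotransferase (1.76), while *spdSyn1*, for spermidine synthase, fell by 1.38.

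Of 14 aquaporin genes, whose products let water cross membranes, 1 rose (7.14%) and 3 fell (21.4%), against 5.26% and 9.3% of all genes. *TIP1-2*, of the vacuolar membrane, had 8.85, 8.71 and 8.87 in H49_DS and 6.48, 6.47 and 5.85 in H49_CT. *PIP2-7*, of the plasma membrane, fell by 2.99 (not called without replicate 1 of both H49 groups, adjusted p = 0.061 from limma), *NIP2-2* by 1.70 and *NIP1-1* by 1.33. Of 51 genes of calcium sensors and their kinases 9 rose (17.6%) and 7 fell (13.7%). The calmodulin-like gene *CML16* rose by 2.25, with 8.97, 9.07 and 9.11 in H49_DS and 5.98, 7.10 and 7.31 in H49_CT. Among CBL-interacting kinase genes *CIPK32* (1.83), *CIPK9* (1.73) and *CIPK5* (1.49) rose, and *CIPK10* (-2.98) fell. The calcium-dependent kinase gene *CPK1* fell by 1.69. *CPK4*, of the same family, fell by 1.61, and its call is lost without H49_CT replicate 2, H49_CT replicate 3 or H49_DS replicate 1 (adjusted p 0.055 to 0.063 from limma). Of 78 mineral ion transporter genes 5 rose (6.41%) and 8 fell (10.3%), shares near those of all genes. *MTP7* rose by 2.46 and *MTP4*, of the same metal transporter family, fell by 2.58 (4.92, 5.27 and 4.60 in H49_DS, 7.87, 7.76 and 6.91 in H49_CT). The potassium transporter genes *HAK18* and *HAK27* rose by 1.88 and 1.83.

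Hormone genes other than those of ABA differed by hormone in the number and direction of calls. Of 50 auxin genes 2 rose and 8 fell. The AUX/IAA repressor genes *IAA10* (6.30, 6.56 and 7.06 in H49_DS, 8.23, 8.42 and 8.42 in H49_CT) and *IAA17* (8.51, 8.43 and 8.76 in H49_DS, 10.29, 10.11 and 10.40 in H49_CT) fell by 1.71 and 1.70, and *IAA18* rose by 1.07. In gibberellin, 2 of 10 genes rose: *GA20OX3*, for a 20-oxidase of synthesis, 5.68-fold (8.80, 8.25 and 8.65 in H49_DS, 6.09, 5.80 and 6.29 in H49_CT), and the receptor gene *gid1* (1.07, under the 2-fold limit at 0.93 without H49_CT replicate 1). In jasmonate, 3 of 20 rose and 1 fell, with the repressor gene *JAZ11* at 7.57, 7.88 and 7.89 in H49_DS and 4.34, 5.30 and 6.60 in H49_CT. For brassinosteroid, 3 of 15 fell and 0 rose, namely the kinase genes *GSK2* (-1.51) and *BAK1* (-1.29) and the synthesis gene *CYP90B2* (-1.35). Of 25 cytokinin genes 1 rose and 2 fell, and none of 8 ethylene and 5 strigolactone genes was called. Several lists had shares near the 5.26% risen and 9.3% fallen among all genes: of 38 CCCH zinc finger genes 3 rose and 3 fell (7.89% each), and of 25 nitrogen and phosphate transport genes 1 rose (4%) and 3 fell (12%). Of 58 antioxidant and redox genes 5 rose (8.62%) and 9 fell (15.5%), and of 27 ubiquitin and proteasome genes 1 rose (3.7%) and 4 fell (14.8%).

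In lists related to growth the share of fallen genes differed. Of 79 genes of DNA replication and the cell cycle 17 fell (21.5%), 1 rose and 61 were not called, and of 28 translation genes 10 fell (35.7%) and 0 rose, against 9.3% of all genes fallen. Of 27 growth factor genes of the GRF, SPL, TCP, YABBY and G1-like families 1 rose and 1 fell (3.7% each). *OsRPA32*, of the single-strand DNA binding complex, had 3.59, 3.45 and 4.15 in H49_DS and 5.40, 5.70 and 5.74 in H49_CT. The helicase gene *OsMCM6* had 3.86, 3.69 and 3.99 in H49_DS and 5.61, 5.62 and 5.80 in H49_CT. In translation, *60SP0*, for a stalk protein of the large ribosomal subunit, had 6.45, 6.26 and 6.95 in H49_DS and 8.21, 7.78 and 7.84 in H49_CT. In the wall, 8 of 80 genes fell and 0 rose, near the 9.3% of all genes fallen. Among these were the cellulose synthase genes of primary walls *CESA1* (7.02, 7.59 and 7.16 in H49_DS, 9.07, 9.0 and 9.22 in H49_CT), *CESA8* (-1.89) and *CESA3* (-1.02), *CESA4* of secondary walls (-1.43), the xylan gene *GT43A* (-1.47) and the expansin gene *EXPB3*, which fell 8.61-fold (6.24, 6.37 and 5.84 in H49_DS, 9.22, 9.45 and 9.10 in H49_CT). Of 22 lignin and laccase genes 5 fell and 0 rose. Tubulin genes listed as controls fell as well, *TUB2* by 2.44 and *TUB4* by 1.87. The arrays of H49_DS had the lower medians, as given above. After centring, falls numbered 11 for DNA replication (with 2 rises), 7 for translation (0 rises) and 6 for the wall (2 rises).

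**Figure D3:**
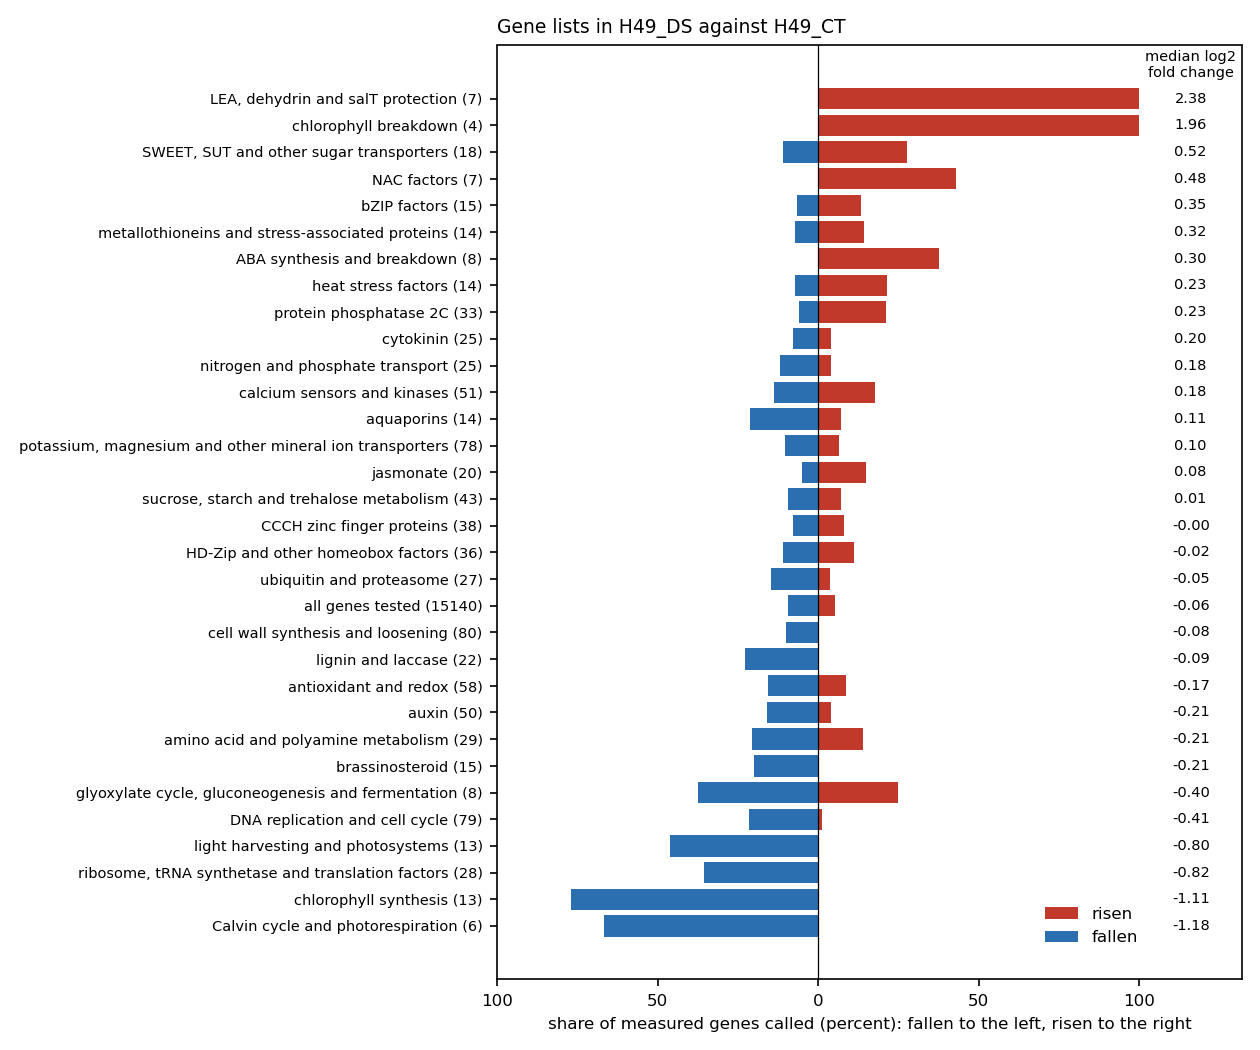
Percent of the measured genes of each list (number in brackets) that rose (red, right) or fell (blue, left) in H49_DS against H49_CT. Shown are lists with at least 3 called genes, except shoot markers and control genes, and all genes tested, with the median log2 fold change beside each list. All 7 named protection and all 4 named chlorophyll breakdown genes rose, 10 of 13 chlorophyll synthesis genes fell, and 5.26% and 9.3% of all genes rose and fell. The lists hold named genes only, of which 8.08% rose and 12.8% fell.

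Some genes varied between arrays by replicate number, among them genes of the circadian clock. The clock gives plants a daily rhythm: *CCA1* is a morning gene and *OsPCL1* the counterpart of an evening gene of Arabidopsis. *CCA1* had 8.17, 10.13 and 6.48 in H49_DS replicates 1, 2 and 3, and 7.82, 9.96 and 5.53 in H49_CT replicates 1, 2 and 3. *OsPCL1* ran the other way, with 4.57, 3.05 and 7.09 in H49_DS and 4.04, 2.94 and 7.60 in H49_CT. The WT arrays had the same order, with *CCA1* at 8.4, 10.62 and 6.20 in WT_DS and 7.33, 10.05 and 5.40 in WT_CT, and *OsPCL1* at 4.56, 2.72 and 6.31 in WT_DS and 4.59, 2.85 and 7.95 in WT_CT. Neither gene was called after DS (log2 fold change 0.49, standard error 1.37 for *CCA1* and 0.04, standard error 1.42 for *OsPCL1*). With a replicate block the standard errors were 0.21 and 0.30, and the adjusted p 0.101 and 0.926. Of 6 clock genes none was called in the fit without the block. The harvest time of the replicates is not given in the sources used here, and its part in this pattern was not tested.

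An order by replicate number, not the same one in each gene, also marked called genes with wide arrays. LOC4343262, with the largest SD within a group among called genes, had 4.91, 3.70 and 5.99 in H49_DS and 7.56, 5.96 and 9.39 in H49_CT, so that its groups overlapped although each replicate was lower after DS (log2 fold change -2.77, adjusted p = 0.046, and 3.4e-05 with the replicate block). In WT the values were 4.66, 3.67 and 5.96 in WT_DS and 7.43, 6.07 and 9.70 in WT_CT. *CIPK10* had 5.28, 3.43 and 6.46 in H49_DS and 8.97, 6.88 and 8.27 in H49_CT, and replicate 2 was the lowest in both. *PIP2-7* had 5.87, 5.77 and 7.37 in H49_DS and 9.41, 8.11 and 10.47 in H49_CT, with replicate 3 the highest in both. *LIR1*, a light-regulated gene of the chloroplast, had 9.50, 7.27 and 10.02 in H49_DS and 11.45, 10.35 and 11.13 in H49_CT. The chlorophyll synthesis genes *CHLH* (6.62, 7.56 and 6.09 in H49_DS, 8.61, 8.94 and 7.53 in H49_CT) and *CHLP* (6.03, 6.56 and 4.77 in H49_DS, 7.68, 8.38 and 6.55 in H49_CT) showed it too, with replicate 3 the lowest. In the fit without the block, the calls of *CIPK10*, *LIR1*, *CHLH*, *CHLP* and LOC4343262 are lost without several single arrays. Without H49_CT replicate 1 the adjusted p from limma was 0.067, 0.11, 0.059, 0.064 and 0.097, in that order of genes. With the replicate block and all arrays it was 9.1e-05, 0.0015, 7.9e-05 and 0.00016 for the first 4 of them. The block was not fitted with arrays left out. Not every wide gene kept its order in every group. LOC4345356 ran downward from replicate 1 to 3 in H49_DS (3.48, 3.06 and 2.80) and, more widely, in H49_CT (7.21, 5.24 and 4.08). WT_DS had the same order (3.72, 3.64 and 3.33), but WT_CT ran the other way (5.01, 5.92 and 6.03). Over the 12 arrays the block left its standard error at 0.54, against 0.56 without it. With the block in the H49 arrays alone it was 0.40.

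**Figure D4:**
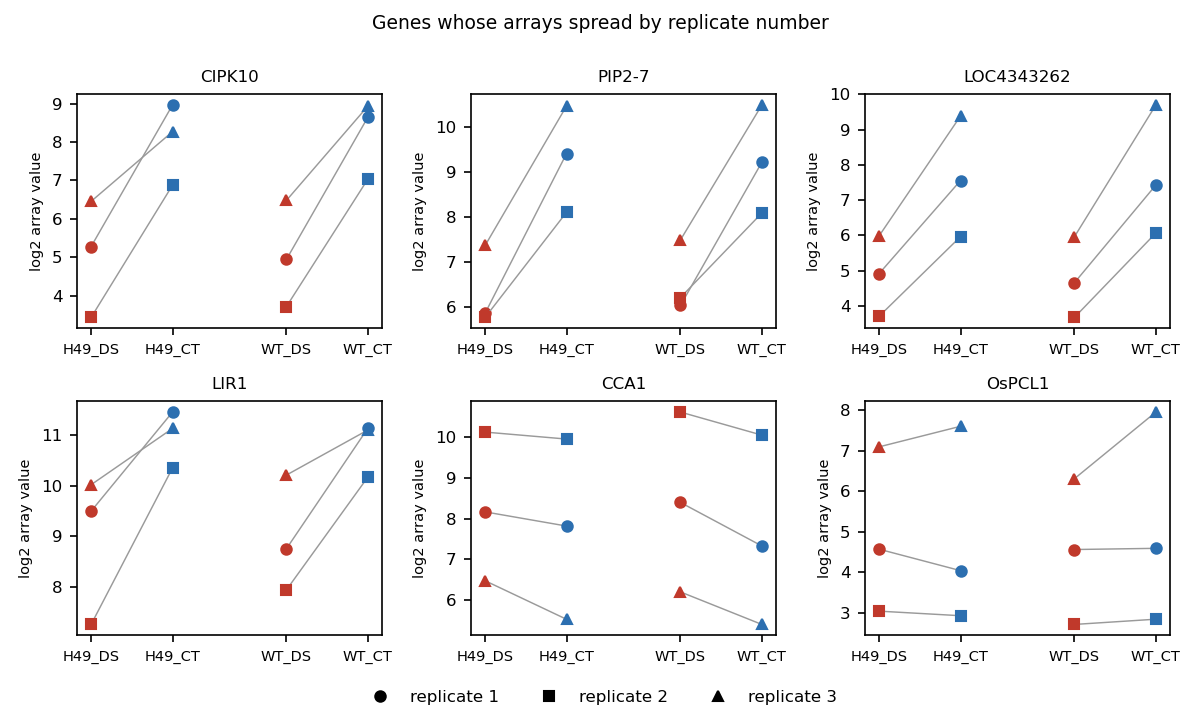
Log2 array values (vertical axes) of 6 genes in H49_DS, H49_CT, WT_DS and WT_CT, with a symbol for each replicate number and lines joining equal numbers of a genotype. CCA1 lies highest in replicate 2 and lowest in replicate 3 in every group (10.13 and 6.48 in H49_DS), and OsPCL1 the other way round.

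Called genes also lay beside each other on the chromosomes. Among 6997 pairs of adjacent genes in the RefSeq order with both measured, 43 had both risen and 107 both fallen. A neighbour of a risen gene had risen in 11% of cases, where 5.58% of the genes of these pairs rose, and a neighbour of a fallen gene had fallen in 15.8%, where 9.7% fell. In 56 pairs 1 gene rose and the other fell. Examples are LOC4325994 (2.43) beside *MHZ4* (2.23), LOC4337675 (1.88) beside *IVD* (1.89), *OsC3H35* (1.73) beside LOC4338039 (1.73), and, downward, LOC9270724 (-1.69) beside *LFNR1* (-2.27) and *CAX1b* (-1.66) beside LOC4339807 (-2.43). Adjacent genes can be near-identical copies that share probe signal, which was not tested.

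To ask how far this response was particular to the over-expression line, it was set against that of WT, which shares no arrays with it. In WT 747 genes rose and 1283 fell, 4.93% and 8.47% of all. The log2 fold changes of H49 and WT correlated at 0.908 across the 15140 genes, which all come from the same 6 and 6 arrays and are not independent. Of the H49 calls, 181 rises and 453 falls were not called in WT. Of these 634 genes, 180 of the 181 also lay above 0 and 449 of the 453 below 0 in WT, with median log2 fold changes of 1.17 in H49 and 0.80 in WT for the rises and of -1.16 in H49 and -0.84 in WT for the falls. Since those genes were picked by their H49 values, the larger H49 medians follow from the choice. Picking by the WT calls instead favours the WT values in the same way, so neither choice gives an even comparison. With that choice the medians were 1.5 in H49 and 1.5 in WT over the 747 WT rises. Over the 1283 WT falls they were -1.31 in H49 and -1.30 in WT. H49 had the larger rise in 337 of the 747 and the larger fall in 551 of the 1283, counts that the choice by WT calls also shapes.

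The test of the difference in response itself passed for 0 genes, 0% of those tested. The smallest adjusted p was 1, and 360 genes had an unadjusted p under 0.05 from limma, 176 with a higher and 184 with a lower response in H49. Without replicate 1 of all 4 groups, which removes the arrays whose genotype is in doubt, the count was 0 as well, with 397 genes at an unadjusted p under 0.05. This does not show that the responses were equal. Both limits of the 95% interval lay within a 2-fold difference in either direction for 60.1% of the genes, and within a 4-fold difference for 97.9%. For *OsHOX24* the response in H49 minus that in WT was 0.34, with a 95% interval from -1.33 to 2.0, and for *OsbZIP23* -0.16, from -0.77 to 0.45. For *NAC077* it was -1.17, from -2.41 to 0.08, for *LEA1* -0.96, from -1.91 to -0.01, and for *HOX7* 1.00, from 0.05 to 1.96. Intervals of single genes are not adjusted for the number of genes.

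The 5 genes with the smallest p of this difference had LOC symbols only. LOC4339934 fell in H49, with 2.92, 3.46 and 2.87 in H49_DS and 4.31, 4.67 and 4.8 in H49_CT, while the WT arrays overlapped (3.50, 3.77 and 3.28 in WT_DS, 3.46, 3.57 and 2.89 in WT_CT). The difference in response was -1.72 (95% interval -2.44 to -0.99, unadjusted p = 0.00019 from limma, adjusted p = 1). LOC9271248 rose in H49 (5.90, 6.27 and 5.87 in H49_DS, 5.15, 4.65 and 5.02 in H49_CT) and overlapped in WT (4.77, 4.83 and 4.63 in WT_DS, 5.15, 5.48 and 4.67 in WT_CT), a difference of 1.43 (0.75 to 2.11). Its rise in H49 lay under 2-fold without H49_CT replicate 2 (0.93) or H49_DS replicate 2 (0.94). LOC4343032 was higher after DS in both, by 0.78 in H49 and 1.89 in WT. LOC4334498 overlapped in H49 (2.62, 2.39 and 2.73 in H49_DS, 2.66, 3.21 and 3.32 in H49_CT) and stood apart in WT, higher after DS. The fifth, LOC4338075, was lower after DS in H49 (-0.48) and higher after DS in WT (0.45). None of the 5 passed the adjustment over all genes.

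**Figure D5:**
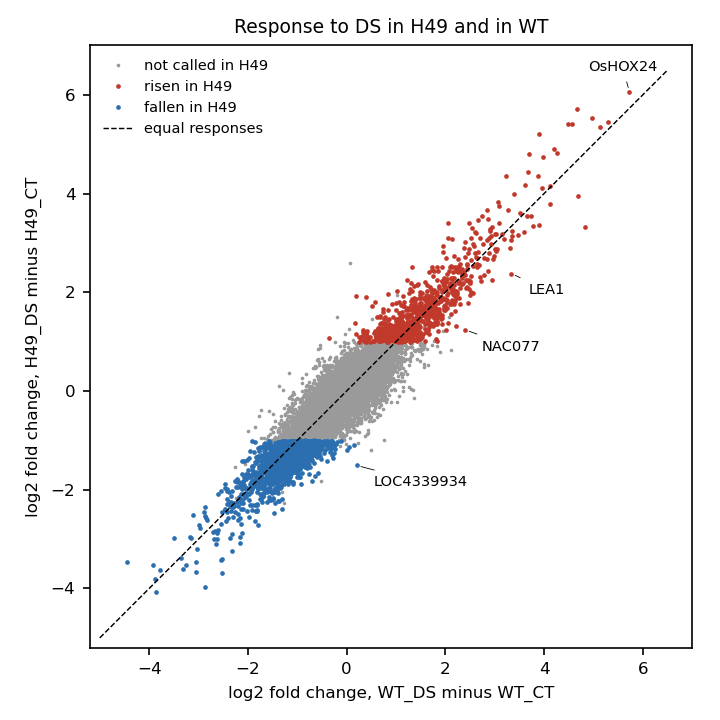
Log2 fold change of each gene in H49 (H49_DS minus H49_CT, vertical axis) against that in WT (WT_DS minus WT_CT, horizontal axis), with genes risen in H49 in red, fallen in blue and not called in grey. The cloud follows the dashed line of equal responses (correlation 0.908 across genes), with OsHOX24 at its upper end and LOC4339934 among the points away from it.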

How the data were processed

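RNA of whole seedlings was hybridized to 12 Affymetrix rice arrays (the labels name a 3' IVT PLUS kit, the methods the WT PLUS kit). The deposited values are log2 signals, 1 per probe set and array, which the authors normalized by RMA in GeneSpring; the RMA step is also listed in the submitters' processing notes. No further scaling was applied. Of 54922 probe sets, 15829 carried 1 gene, 440 several and 38653 none in the platform table, and those with several or none were left out. A gene with several probe sets (627 of 15140) was represented by the one with the highest mean. All gene IDs matched the RefSeq table (assembly ASM3414082v1), which supplied names through synonyms and the order of genes.

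Groups came from the sample titles. limma 3.58.1 in R 4.3.3 fitted 1 mean per group over the 12 arrays, with 8 residual and 5.32 prior degrees of freedom, and p-values were Benjamini-Hochberg adjusted over all genes. The median standard error was 0.229 for the response of H49 and 0.323 for the difference in response. Arrays have no read depth; precision is limited by how many there are. The fit was tested on simulated data. Tables and figures used Python 3.11.15, numpy 2.4.6, pandas 2.3.3 and matplotlib 3.10.9.

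The 49 gene lists were found by name (1049 genes), so genes with a LOC symbol only could not enter them. Genes were named by rule: *OsHOX24*, the 15 largest rises and falls with no overlap of arrays, up to 6 called and the defining members of each list, the 5 smallest p of the difference in response and the 5 widest called genes. The members and lists were chosen with earlier results of these data known. Deviations from the group means correlated by 0.244, 0.256 and 0.301 between H49_DS and H49_CT arrays of equal replicate number (titles) and by at most -0.0705 otherwise. Deviations from a group's own mean cancel out within the group, so the negative values follow in part from the calculation. An alternative fit treated the numbers as pairing these arrays.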

Additional observations from a re-analysis of the deposited data

Results flagged for a closer look

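LOC4338075 moved in opposite directions in H49 and WT in every array. It had 3.30, 3.49 and 3.35 in H49_DS and 3.91, 3.90 and 3.75 in H49_CT, and 4.10, 3.94 and 3.99 in WT_DS and 3.55, 3.43 and 3.69 in WT_CT. The response in H49 minus that in WT was -0.93 on the log2 scale (95% interval -1.40 to -0.45, unadjusted p = 0.00097 from limma), and its adjusted p over all genes was 1. Neither response reached 2-fold. Over all 15140 genes 19 stood apart in opposite directions in this way, and 0 of them were called in H49.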

How the results depend on the processing

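The 0 genes with a different response in H49 and WT stayed at 0 in every alternative fit; the methods' t-test has no form for it. With the 6 H49 arrays alone 793 genes rose and 1410 fell, and with the replicate block 810 and 1445 (822 and 1462 with the block in the H49 arrays alone, added after seeing the data). The paired fits kept every named call, and all 797 rises and 1408 falls remained called with the block over 12 arrays. Without a fold minimum 1436 rose and 2673 fell, and at a fold of at least 4 it was 198 and 136. Over all probe sets 1527 rose and 3408 fell. Centred arrays gave 885 falls. The methods' t-test gave 765 rises and 1339 falls unadjusted, and 563 and 752 after Benjamini-Hochberg adjustment. Leaving out single H49 arrays gave 764 to 818 rises and 1228 to 1545 falls, and without replicate 1 of both H49 groups there were 726 rises and 1069 falls (755 and 1055 without replicate 1 of all 4 groups, added after seeing the data, also with 32 named calls lost); 592 rises and 921 falls were called whichever single array was left out. Of 201 named genes called, 16 lost the call with centred arrays, 9 with quantile normalization, 1 with the H49 arrays alone, 2 each with the mean of probe sets and the trended and robust spread, 8 to 16 with a single H49 array left out, and 32 without replicate 1 of both H49 groups. The mean of probe sets ended the call of *EF-Ts*. No named gene changed direction while called. The promoter motif alternatives were not run. Signal over background was not used here.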
